A study of Homo sapiens with 6 samples.

Results

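Ribosome biogenesis was followed through 51 genes that encode nucleolar factors of this process, in MDA-MB-231 cells given either BRL-50481 or the solvent DMSO. The 51 genes were chosen by name, as the members of a fixed list that appear in the gene column of the deposited table. The list was chosen with earlier results of these data known, so its share of lower genes is a description and not a test. All 51 were found among the 15651 genes of the table, and all 51 passed the filter on low values (at least 3 libraries at or above 4 normalized counts), which left 15246 genes for testing. MDA-MB-231 is an established human cell line from a triple-negative breast cancer, a tumor type that lacks the estrogen and progesterone receptors and HER2. BRL-50481 inhibits phosphodiesterase 7A (PDE7A), an enzyme that degrades the second messenger cAMP. The comparison asked how the cells' transcripts change when PDE7A is inhibited, in 3 BRL-50481 libraries against 3 DMSO libraries, described as biological replicates. The treatment text of the labels gives 50 µM BRL-50481 for 72 h, as the study's figure legend for these RNA data does. The treatment tag of the same samples instead gives 5 µM and 48 h. Cells of both groups came from this single line and were grown in DMEM with serum and antibiotics, and no other dose, time or line is part of these libraries.

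Ribosomes are built in the nucleolus, where RNA polymerase I transcribes a long precursor RNA. Small nucleolar ribonucleoprotein particles (snoRNPs) modify this precursor, those of the box C/D class by methylation and those of the H/ACA class by pseudouridylation. The small subunit processome, a large assembly on the precursor, folds and cleaves the part that becomes the small subunit, while other factors assemble and export the large subunit. Fast-growing tumor cells have large nucleoli and a high demand for ribosomes, and MYC is a known activator of many genes of this pathway through a DNA element called the E-box, CACGTG.

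The E-box is shown first, because it was found near the start of a large share of these genes. Promoter sequences from RefSeq (build hg38), which span 250 bases before to 50 bases after each gene's start, were matched to 43 of the 51 genes. The remaining 8 were BOP1, DDX18, DDX52, NOLC1, NOP58, RRP12, RRP1B and RRS1. An E-box stood in the window of 21 of the 43 genes (48.8%), against 1378 of the 11457 other genes tested (12.0%) and 8.77% of all 27305 genes in the reference. The search counts both strands at once, since CACGTG reads the same on each. Below are 30-base stretches around 11 of these E-boxes, chosen to cover every step of the pathway, with the E-box in capitals and the gene's own strand written 5′ to 3′.
FBL (chr19:39846356-39846385, minus strand): tgcgctcttttcCACGTGcgaaagccccgg
NOP10 (chr15:34343130-34343159, minus strand): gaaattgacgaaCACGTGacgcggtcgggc
PNO1 (chr2:68157885-68157914, plus strand): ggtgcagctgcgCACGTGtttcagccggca
NOL6 (chr9:33473894-33473923, minus strand): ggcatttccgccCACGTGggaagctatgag
RRP9 (chr3:51941892-51941921, minus strand): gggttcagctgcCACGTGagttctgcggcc
RCL1 (chr9:4792936-4792965, plus strand): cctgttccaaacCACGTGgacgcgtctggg
UTP20 (chr12:101280083-101280112, plus strand): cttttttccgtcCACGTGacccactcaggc
GNL3 (chr3:52686026-52686055, plus strand): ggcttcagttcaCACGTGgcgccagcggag
GNL2 (chr1:37595917-37595946, minus strand): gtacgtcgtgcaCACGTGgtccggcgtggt
PES1 (chr22:30591880-30591909, minus strand): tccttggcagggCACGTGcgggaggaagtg
MYBBP1A (chr17:4555340-4555369, minus strand): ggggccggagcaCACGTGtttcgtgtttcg

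Counting the first transcribed base as 0, the E-box began at base 6 in FBL, 9 in PNO1, 13 in NOL6, 4 in RCL1, 6 in GNL3, 3 in GNL2, 13 in PES1 and 27 in MYBBP1A. Those of RRP9, UTP20 and NOP10 began before the start, at −5, −10 and −11, and NOP10 had a further copy at −170. Among all 24 E-boxes of the 21 genes, 17 (70.8%) began at or after the start, although only 16.7% of the window lies there. For the 1670 E-boxes of the other genes tested, 8.86% did so. Against the canonical GENCODE transcript of each gene, 17 of the 24 lay in the 5′ UTR within an exon, 5 lay upstream, that of DDX21 lay in an intron and that of RRP9 crossed the start. Of the 5 upstream, the NOP10 copy at −11 lies inside the span of the gene, since other GENCODE transcripts of NOP10 begin further upstream. A match of these letters is a description of the sequence, and binding of MYC or of any other protein was not measured.

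**Figure D1:**
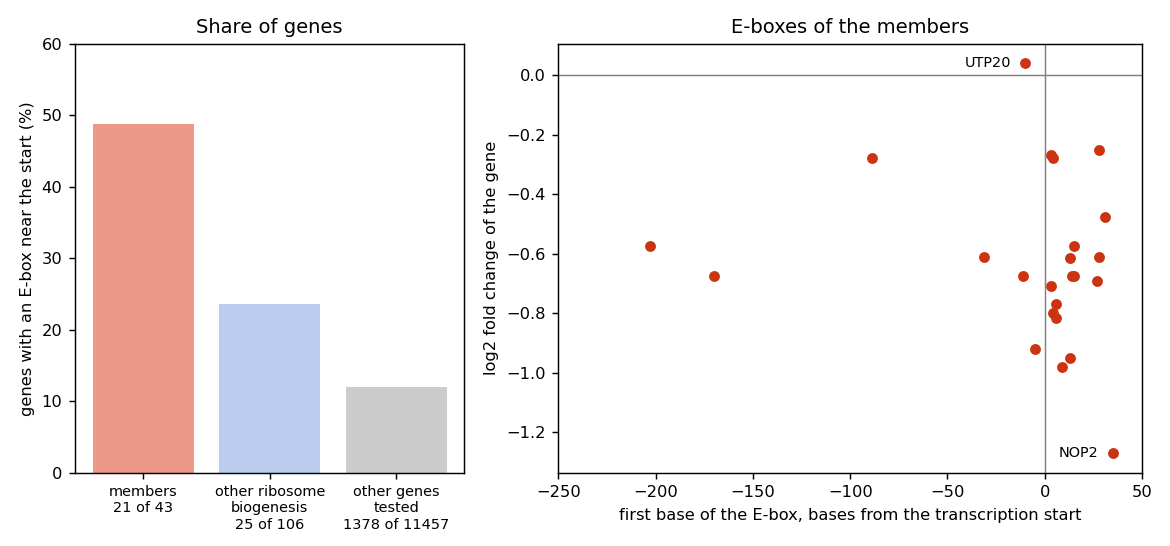
Left, percentage of genes with an E-box (CACGTG) from 250 bases before to 50 bases after the start, for 21 of 43 members, 25 of 106 other ribosome biogenesis genes and 1378 of 11457 other genes tested. Right, each point is 1 of the 24 E-boxes of the members, by the distance of its first base from the transcription start (bases) and the log2 fold change of its gene; 17 points lie at or right of the start, and UTP20 is the only gene above 0.

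Transcripts of this pathway were lower in BRL-50481-treated cells at every step. Of the 51 genes, 48 fell (94.1%), none rose, and 3 small subunit genes (HEATR1, UTP20 and DDX10) did not pass the test. Genes were tested by limma on log2(normalized count + 1) and called at a Benjamini-Hochberg adjusted p under 0.05 over all 15246 genes, a rule by which 29.8% of all genes tested were called lower and 28.9% higher. The median log2 fold change of the 51 genes was −0.61, with the middle 50% between −0.77 and −0.34, beside a median of 0.015 over all genes tested. Among the 11142 genes with mean counts in the range of the 51, 36.2% were lower and the median was −0.027. The 3 BRL-50481 libraries all lay below the 3 DMSO libraries for 48 of the 51 genes, and for 32.3% of all genes tested. A fall of more than 1 on the log2 scale was called in 4 of them (NOP2, NOP16, RRS1 and RRP12), and in 2.98% of all genes tested. As the values come from whole cultures, fewer cells with a transcript and less of it in each cell cannot be told apart.

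Reads could be recovered, since every value of a library was a multiple of what 1 read is worth. They numbered 30750573 to 33446984 per library, and cover only reads counted on the 15651 genes of the deposited table, not all reads sequenced. In DMSO replicates 1 to 3 the 51 genes together took 0.908%, 0.919% and 0.917% of these counted reads. The shares were 0.656%, 0.638% and 0.659% in BRL-50481 replicates 1 to 3. NPM1, NCL and DDX21 held a good part of the reads of the 51 genes. Without them the shares ran from 0.564% to 0.576% in DMSO and from 0.390% to 0.399% in BRL-50481, so the groups did not overlap on either measure. Of the markers of the line, VIM, CD44 and EGFR had mean normalized counts of 58840.4, 31414 and 6930.3 in DMSO. The epithelial gene CDH1 was at 38.2 there and the progesterone receptor gene PGR at 1.67. In BRL-50481 the same genes were at 87654, 43553, 11406, 99.8 and 5.61, and whether this difference has a part in the results below was not tested. The estrogen receptor gene ESR1 was not analysed here and the HER2 gene was not among the markers, so the triple-negative state was checked only in part. DMSO replicate 1 stood apart in that its values scattered most (residual SD of 0.142 on the log2 scale, against 0.0791 to 0.119 in the other 5 libraries), and results that turn on it are given with and without it.

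**Figure D2:**
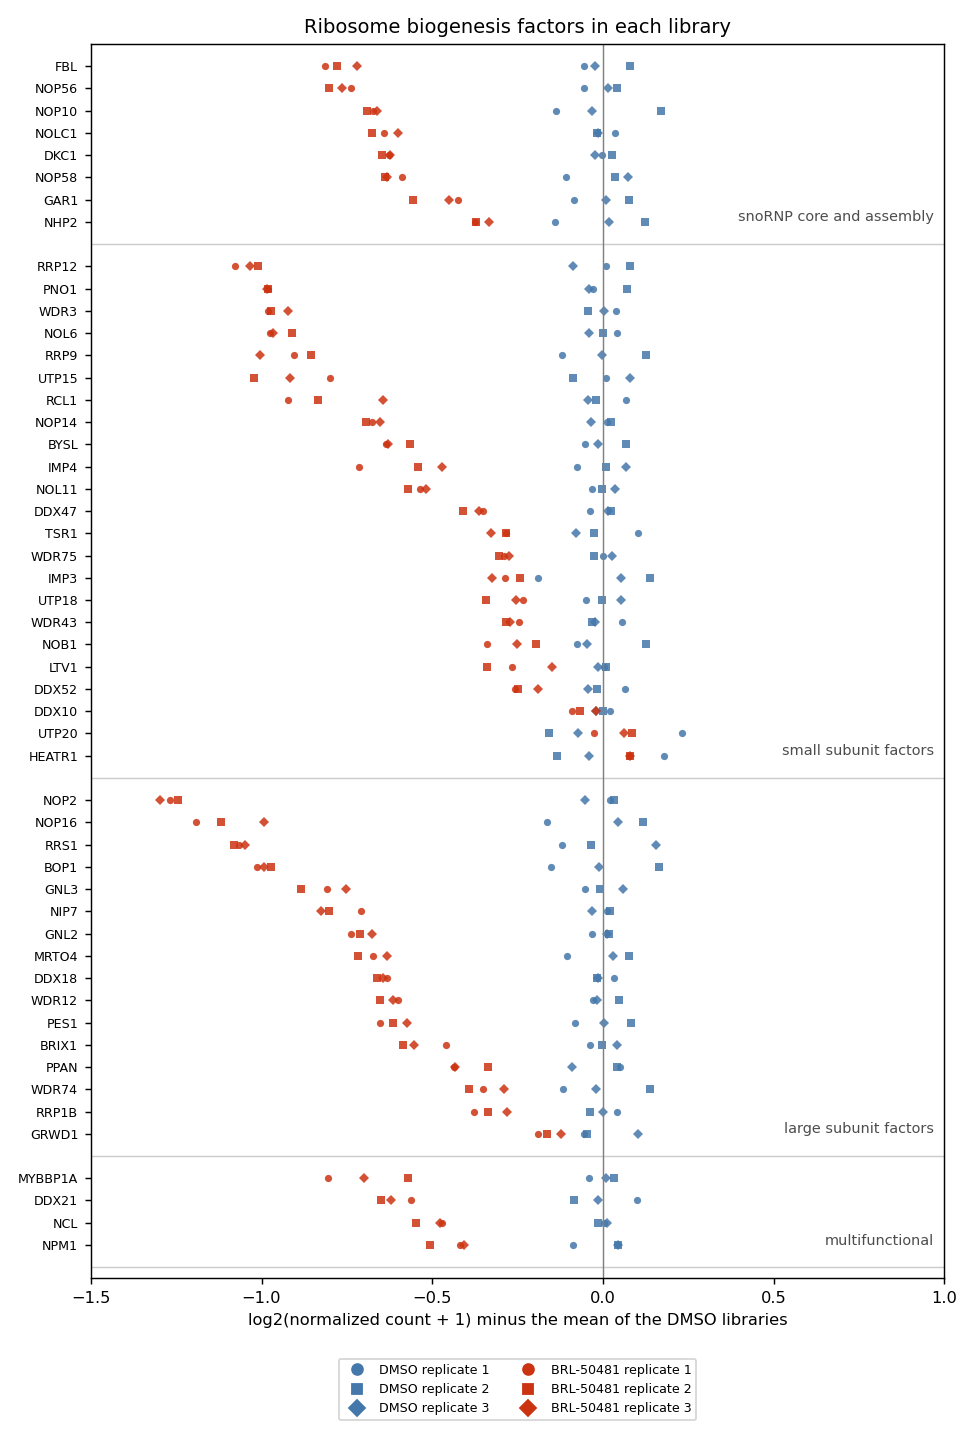
Each row is 1 gene and each point 1 library, as log2(normalized count + 1) minus the mean of the 3 DMSO libraries (blue, DMSO; red, BRL-50481; shapes, replicates), with genes ordered by their change within each step. The red points lie left of all blue points in 48 of 51 rows, and overlap them for DDX10, UTP20 and HEATR1.

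Transcripts for the core proteins of both snoRNP classes fell. All 8 snoRNP genes were lower, beside 29.8% of all genes tested. Their median was −0.64 on the log2 scale, in a range of −0.77 to −0.36. FBL encodes fibrillarin, the methyltransferase of the box C/D particles (chr19:39834458-39846379, minus strand, 9 exons). FBL had 11656, 12799 and 11929.7 normalized counts in DMSO replicates 1 to 3 and 6896, 7064 and 7359.7 in BRL-50481 replicates 1 to 3. The means of 12128 ± 597 and 7107 ± 235 (SD, n = 3 each) gave a log2 fold change of −0.77 (SE 0.0499, adjusted p = 5.67e-08 in limma). NOP56 and NOP58 encode the paired scaffold proteins that hold fibrillarin on the guide RNA. NOP56 had 6509, 6969 and 6838 normalized counts in the DMSO libraries and 4056, 3881 and 3981 in the BRL-50481 libraries, a log2 fold change of −0.77 (SE 0.0481, adjusted p = 4.27e-08). NOP58 values were 5322, 5876 and 6026 normalized counts in DMSO and 3809, 3679.5 and 3696 in BRL-50481, with a log2 fold change of −0.62 (SE 0.0547, adjusted p = 7.75e-07). No library of one group reached into the range of the other for any of these 3 genes. FBL and NOP56 lost 41.4% and 41.3% of their mean count, and NOP58 lost 35.1%.

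The H/ACA particles carry 4 core proteins, and transcripts of all 4 were lower, beside 29.8% of all genes tested. DKC1 (chrX:154762742-154777689, plus strand) encodes dyskerin, the pseudouridine synthase, which is also a part of telomerase. For DKC1, DMSO values of 8429.9, 8609 and 8325 normalized counts stood beside BRL-50481 values of 5474, 5402 and 5480.3, giving a log2 fold change of −0.63 (SE 0.0438, adjusted p = 9.85e-08). GAR1 takes part in loading the substrate RNA onto the particle. In DMSO GAR1 was at 2163, 2418 and 2304 normalized counts and in BRL-50481 at 1707, 1559 and 1678, which was a log2 fold change of −0.48 (SE 0.0614, adjusted p = 2.12e-05). Neither gene had overlapping groups, and GAR1 fell by less. The 2 smallest subunits, NOP10 and NHP2, complete the core, and their DMSO values spread more than those of DKC1. NOP10 had 2865, 3548 and 3085 normalized counts in the DMSO libraries and 1975, 1953 and 1993 in the BRL-50481 libraries, a log2 fold change of −0.68 (SE 0.0702, adjusted p = 3.25e-06). NHP2 values were 1611, 1937 and 1798 normalized counts in DMSO and 1370.1, 1372 and 1410.3 in BRL-50481, with a log2 fold change of −0.36 (SE 0.0688, adjusted p = 0.000566). DMSO replicate 1 held the lowest DMSO value for GAR1, NOP10 and NHP2, but every DMSO value stayed above every BRL-50481 value. The log2 fold changes with 1 library left out in turn ran from −0.52 to −0.44 for GAR1, from −0.75 to −0.59 for NOP10 and from −0.43 to −0.30 for NHP2. NOLC1, a chaperone that accompanies snoRNPs between the Cajal body and the nucleolus, was lower in each BRL-50481 library than in any DMSO library. For NOLC1, DMSO values of 14145, 13644 and 13669 normalized counts stood beside BRL-50481 values of 8851, 8643 and 9114, giving a log2 fold change of −0.64 (SE 0.0442, adjusted p = 9.76e-08).

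Small subunit factors were the least uniform step, by a small margin (SD of the log2 fold changes of 0.35, against 0.31 for the large subunit). Of the 23 genes, 20 fell (87.0%, beside 29.8% of all genes tested) and 3 were not called. The median log2 fold change was −0.38, in a range from −1.04 to 0.078. The UTP-A complex, which binds the start of the precursor RNA and is also needed for its transcription, spanned most of this range. In DMSO UTP15 was at 1603, 1498 and 1680.3 normalized counts and in BRL-50481 at 915, 783 and 843, which was a log2 fold change of −0.91 (SE 0.0728, adjusted p = 3.28e-07). NOL11 had 3809, 3891 and 3994 normalized counts in the DMSO libraries and 2687, 2625 and 2719.8 in the BRL-50481 libraries, a log2 fold change of −0.54 (SE 0.0488, adjusted p = 9.44e-07). WDR75 values were 3516, 3447 and 3579 normalized counts in DMSO and 2871, 2848 and 2906 in BRL-50481, with a log2 fold change of −0.29 (SE 0.048, adjusted p = 0.000181). The DMSO libraries were higher throughout for these 3 genes, with the narrowest gap at WDR75. WDR43, also of UTP-A, fell by 0.27 on the log2 scale, so 4 of the 5 UTP-A genes were lower. The fifth, HEATR1, is described with the genes that were not called.

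Within the UTP-B complex, which joins the processome after UTP-A, both genes on the list fell, beside 29.8% of all genes tested. WDR3 (chr1:117929720-117966543, plus strand, 27 exons) encodes a scaffold protein of tandem WD-repeat propellers. For WDR3, DMSO values of 6738, 6366 and 6578 normalized counts stood beside BRL-50481 values of 3325, 3344 and 3463, giving a log2 fold change of −0.96 (SE 0.0476, adjusted p = 6.46e-09). In DMSO UTP18 was at 3787, 3906 and 4061 normalized counts and in BRL-50481 at 3331, 3088 and 3281, which was a log2 fold change of −0.28 (SE 0.0523, adjusted p = 0.000519). The groups were apart in both, and the loss was 48.5% of the mean count for WDR3 and 17.5% for UTP18. RRP9 binds the U3 snoRNA, the guide at the centre of the processome, and IMP3 and IMP4 help U3 to pair with the precursor. RRP9 had 1719, 2038 and 1863 normalized counts in the DMSO libraries and 998, 1033 and 931 in the BRL-50481 libraries, a log2 fold change of −0.92 (SE 0.0721, adjusted p = 2.77e-07). IMP4 values were 1211, 1285 and 1338 normalized counts in DMSO and 778, 876 and 921 in BRL-50481, with a log2 fold change of −0.58 (SE 0.0747, adjusted p = 2.26e-05). For IMP3, DMSO values of 492, 618 and 582 normalized counts stood beside BRL-50481 values of 460.1, 474 and 448, giving a log2 fold change of −0.29 (SE 0.0915, adjusted p = 0.0164). RRP9 had its groups well apart, and the 2 IMP genes had different margins. With IMP4 the lowest DMSO library stood above the highest BRL-50481 library by a wide gap, whereas the DMSO replicate 1 value of IMP3 was close to its BRL-50481 values. IMP3 lost its call when DMSO replicate 2, DMSO replicate 3, BRL-50481 replicate 1 or BRL-50481 replicate 3 was left out (adjusted p in limma of 0.0646, 0.0599, 0.0514 and 0.0603).

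Other processome factors include NOL6 of the UTP-C complex, RCL1, a relative of RNA cyclases, and NOP14, which is needed for maturation of the small subunit RNA. In DMSO NOL6 was at 4457, 4331 and 4205 normalized counts and in BRL-50481 at 2201, 2303 and 2217, which was a log2 fold change of −0.95 (SE 0.0502, adjusted p = 1.08e-08). RCL1 had 531, 499.6 and 491 normalized counts in the DMSO libraries and 267, 284 and 324 in the BRL-50481 libraries, a log2 fold change of −0.80 (SE 0.0933, adjusted p = 8.88e-06). NOP14 values were 6493, 6553 and 6292 normalized counts in DMSO and 4035, 3983 and 4099 in BRL-50481, with a log2 fold change of −0.67 (SE 0.0457, adjusted p = 8.24e-08). RCL1 had the widest scatter of the 51 genes in BRL-50481, a coefficient of variation of 10.0% (BRL-50481 replicate 3 was the highest), and its groups were far apart. The RNA helicases DDX47 and DDX52 of the DEAD-box family fell by 0.38 and 0.23 on the log2 scale. All 6 factors that act late, in part in the cytoplasm, were lower, beside 29.8% of all genes tested. RRP12 (chr10:97356358-97426076, minus strand) serves in export of the pre-ribosomal subunits. The normalized counts of RRP12 were 4622, 4859.7 and 4325 in the DMSO libraries and 2178, 2279 and 2243 in the BRL-50481 libraries. This was a log2 fold change of −1.04 (SE 0.0552, adjusted p = 1.10e-08 in limma), from 4602 ± 268 to 2233 ± 51.6 (mean ± SD, n = 3 each). All 3 BRL-50481 values lay far below the lowest DMSO value, that of replicate 3. PNO1 and BYSL bind the maturing small subunit, PNO1 near its final cleavage site. For PNO1, DMSO values of 2582, 2761 and 2559 normalized counts stood beside BRL-50481 values of 1333, 1333 and 1329.8, giving a log2 fold change of −0.98 (SE 0.0549, adjusted p = 1.69e-08). In DMSO BYSL was at 2397, 2607 and 2463 normalized counts and in BRL-50481 at 1601, 1681 and 1606, which was a log2 fold change of −0.61 (SE 0.0559, adjusted p = 1.09e-06). Both were lower in every BRL-50481 library, and those of PNO1 were nearly identical, with an SD of 1.68 normalized counts. TSR1, a GTPase-like factor, fell by 0.30, NOB1, the nuclease of that final cleavage, by 0.26, and LTV1, which is released before the subunit matures, by 0.25 on the log2 scale.

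HEATR1, UTP20 and DDX10 were not called, and all belong to the small subunit processome. HEATR1 is the largest UTP-A protein, UTP20 a very large scaffold of helical repeats, and DDX10 a helicase of the DEAD-box family. For HEATR1, normalized counts of 2782, 2238 and 2389 in DMSO stood beside 2593, 2598 and 2598 in BRL-50481. Its log2 fold change was 0.078 (SE 0.0709, adjusted p = 0.363 in limma), the DMSO mean being 2469.9 ± 281 and the BRL-50481 mean 2596 ± 2.55 (SD, n = 3 each). The BRL-50481 values of HEATR1 lay inside the DMSO range, which was set by a high DMSO replicate 1. In the DMSO libraries UTP20 was at 2217, 1689.8 and 1793 normalized counts, and in the BRL-50481 libraries at 1851, 2000.4 and 1968. With 1899.7 ± 279 against 1939.8 ± 78.3 (mean ± SD, n = 3 each), the log2 fold change came to 0.039 (SE 0.0856, adjusted p = 0.714 in limma). UTP20 had the same order, with DMSO replicate 1 above and the other 2 DMSO libraries below every BRL-50481 library. Without DMSO replicate 1 both were called higher, at log2 fold changes of 0.17 for HEATR1 (adjusted p = 0.00222 in limma) and 0.16 for UTP20 (adjusted p = 0.00913 in limma), and UTP20 was at −0.040 without DMSO replicate 2. With a correction for transcript length and GC content both were instead called lower, HEATR1 at −0.11 (adjusted p = 0.0116 in limma) and UTP20 at −0.16 (adjusted p = 0.00675 in limma). DDX10 had 4815, 4739 and 4674 normalized counts in DMSO replicates 1 to 3 and 4451, 4526 and 4677 in BRL-50481 replicates 1 to 3. The means of 4743 ± 70.6 and 4551 ± 115 (SD, n = 3 each) gave a log2 fold change of −0.060 (SE 0.0466, adjusted p = 0.289 in limma). For DDX10, 1 BRL-50481 library (replicate 3) lay just above the lowest DMSO library (replicate 3). A two-sided exact permutation test over the 6 libraries gave p = 0.4 for HEATR1, 0.9 for UTP20 and 0.2 for DDX10, and 0.1, the smallest it can give with 3 against 3, for each of the other 48 genes.

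**Figure D3:**
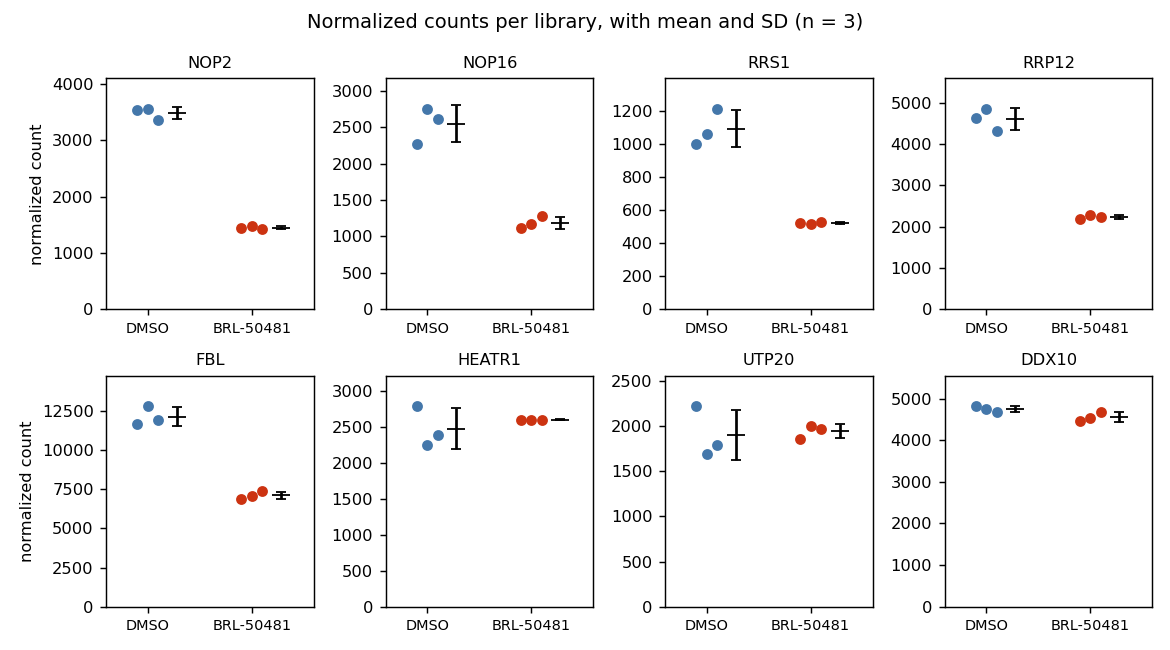
Normalized counts in each library (points) with the mean and SD of each group (black, n = 3) for the 4 genes with a fall of more than 1 on the log2 scale (NOP2, NOP16, RRS1, RRP12), for FBL, and for the 3 genes that were not called (HEATR1, UTP20, DDX10); each y axis starts at 0. The groups are apart in the first 5 panels and overlap in the last 3.

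Factors of the large subunit were lower throughout. All 16 genes fell, beside 29.8% of all genes tested. Their median log2 fold change was −0.66, in a range of −1.27 to −0.16, and 3 of the 4 falls of more than 1 were here. NOP2 (chr12:6556863-6568691, minus strand, 16 exons) encodes a methyltransferase of the large subunit RNA and a proliferation antigen. The normalized counts of NOP2 were 3537, 3567 and 3359.6 in the DMSO libraries and 1446, 1469.6 and 1417 in the BRL-50481 libraries. This was a log2 fold change of −1.27 (SE 0.0526, adjusted p = 1.70e-09 in limma), from 3488 ± 112 to 1444 ± 26.3 (mean ± SD, n = 3 each). This was the largest fall of the 51, and 58.6% of the mean count was lost. NOP16 (chr5:176383946-176388927, minus strand) and RRS1 encode assembly factors, RRS1 with a part in loading the 5S particle. For NOP16, normalized counts of 2272, 2760.4 and 2623 in DMSO stood beside 1112, 1170.4 and 1277 in BRL-50481. Its log2 fold change was −1.10 (SE 0.0771, adjusted p = 1.08e-07 in limma), the DMSO mean being 2552 ± 252 and the BRL-50481 mean 1186 ± 83.2 (SD, n = 3 each). In NOP16 the lowest DMSO library (replicate 1) was still above the highest BRL-50481 library. In the DMSO libraries RRS1 was at 1000.1, 1061 and 1212 normalized counts, and in the BRL-50481 libraries at 519, 514 and 525. With 1091 ± 109 against 519.5 ± 5.82 (mean ± SD, n = 3 each), the log2 fold change came to −1.06 (SE 0.0789, adjusted p = 1.74e-07 in limma). NOP16 and RRS1 lost 53.5% and 52.4% of their mean count, with no overlap between the groups. NIP7 is needed for processing of the precursor RNA. NIP7 had 2798, 2818 and 2712 normalized counts in the DMSO libraries and 1699, 1590.5 and 1565 in the BRL-50481 libraries, a log2 fold change of −0.78 (SE 0.0549, adjusted p = 1.14e-07).

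PES1, BOP1 and WDR12 form the PeBoW complex, which acts on the large subunit precursor and links it to proliferation. BOP1 values were 3644, 4537 and 4018 normalized counts in DMSO and 2004, 2063 and 2036 in BRL-50481, with a log2 fold change of −0.99 (SE 0.07, adjusted p = 1.13e-07). For PES1, DMSO values of 3554, 3982 and 3769 normalized counts stood beside BRL-50481 values of 2395, 2457 and 2529.8, giving a log2 fold change of −0.61 (SE 0.0555, adjusted p = 9.77e-07). In DMSO WDR12 was at 2224, 2344 and 2239 normalized counts and in BRL-50481 at 1496, 1442 and 1481, which was a log2 fold change of −0.62 (SE 0.0541, adjusted p = 6.86e-07). The groups did not overlap for any of them. BOP1 lost 50.0% of its mean count, against 34.7% for PES1 and 35.1% for WDR12. The nucleolar GTPases GNL3 (nucleostemin) and GNL2 fell as well. GNL3 had 10929, 11269 and 11804 normalized counts in the DMSO libraries and 6465, 6139 and 6720.0 in the BRL-50481 libraries, a log2 fold change of −0.82 (SE 0.0504, adjusted p = 3.85e-08). GNL2 values were 5060.3, 5235 and 5217 normalized counts in DMSO and 3099, 3154 and 3236 in BRL-50481, with a log2 fold change of −0.71 (SE 0.0473, adjusted p = 7.28e-08). The groups were separate in both. DDX18, a helicase of the DEAD-box family, is the remaining RNA enzyme of this step. For DDX18, DMSO values of 5584, 5391 and 5404 normalized counts stood beside BRL-50481 values of 3518, 3448 and 3489, giving a log2 fold change of −0.65 (SE 0.0461, adjusted p = 1.24e-07). The other falls of this step were those of MRTO4 (−0.67), BRIX1 (−0.53), PPAN (−0.40), WDR74 (−0.34), RRP1B (−0.33) and GRWD1 (−0.16), all as log2 fold changes. GRWD1, a histone-binding WD-repeat protein, was called by a narrow margin (adjusted p = 0.04997 in limma). It lost its call without DMSO replicate 3 and without BRL-50481 replicate 1, 2 or 3 (adjusted p of 0.233, 0.143, 0.121 and 0.0847 in limma).

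NPM1, NCL, DDX21 and MYBBP1A act in more than 1 step, and all 4 fell, beside 29.8% of all genes tested. Their median log2 fold change was −0.55. NPM1 encodes nucleophosmin, a chaperone that shapes the granular part of the nucleolus. In DMSO NPM1 was at 43601, 47776 and 47785 normalized counts and in BRL-50481 at 34675, 32625 and 34935, which was a log2 fold change of −0.44 (SE 0.0501, adjusted p = 6.64e-06). NCL encodes nucleolin, which binds the precursor RNA and chromatin of its genes. NCL had 40111, 39593 and 40357 normalized counts in the DMSO libraries and 28881, 27379 and 28760.4 in the BRL-50481 libraries, a log2 fold change of −0.50 (SE 0.0427, adjusted p = 6.13e-07). NPM1 and NCL were lower in every BRL-50481 library, and DMSO values were more even for NCL than for NPM1. DDX21 is a helicase that couples transcription of the precursor to its processing, and MYBBP1A associates with RNA polymerase I. DDX21 values were 28250.3, 24867 and 26130.1 normalized counts in DMSO and 17861, 16796 and 17150.4 in BRL-50481, with a log2 fold change of −0.61 (SE 0.0522, adjusted p = 5.91e-07). For MYBBP1A, DMSO values of 3693, 3880.1 and 3820.3 normalized counts stood beside BRL-50481 values of 2171, 2554 and 2336, giving a log2 fold change of −0.69 (SE 0.0616, adjusted p = 8.40e-07). Both showed separate groups, and DDX21 was highest in DMSO replicate 1. As levels per kilobase of transcript, NPM1 was the most abundant of the 51 in DMSO (35142 normalized counts per kilobase), before FBL (10781), NCL (10199), NOP10 (6244) and GNL3 (5863). PPAN was the least abundant at 58.7, though its exons overlap those of another gene on the same strand, so its count is uncertain. In BRL-50481 the same measure was 25817 for NPM1, 6317 for FBL, 7222 for NCL, 3893 for NOP10, 3332 for GNL3 and 44.4 for PPAN, so FBL and NCL changed places. DDX21, at 5664 in DMSO and 3703 in BRL-50481, passed GNL3 to become the fifth.

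**Figure D4:**
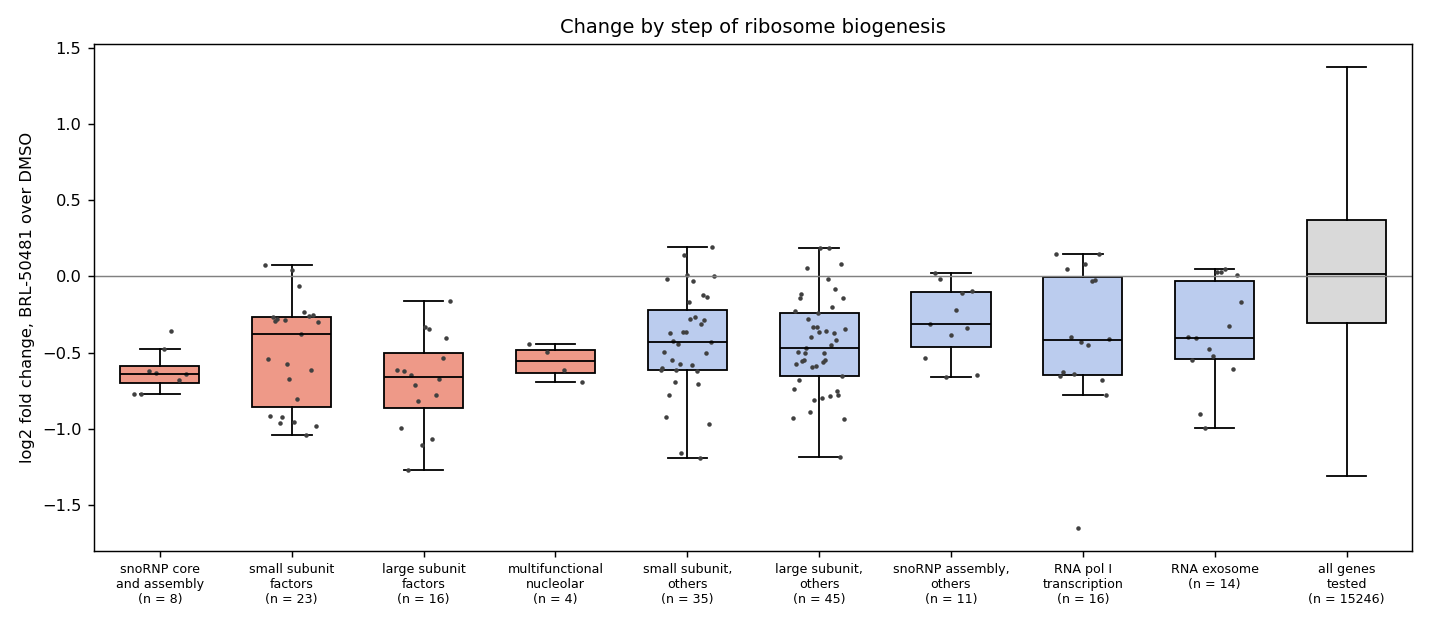
Log2 fold change (BRL-50481 over DMSO) of the members by step (red), of 5 lists of other genes of the pathway (blue) and of all genes tested (grey); points are genes, boxes span the middle 50% with the median, and for all genes the values beyond the whiskers are not drawn. The medians are −0.64, −0.38, −0.66 and −0.55 for the 4 steps, −0.47 to −0.31 for the other lists and 0.015 for all genes.

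Genes whose products work together were also compared with each other. For 8 pairs of partners, the log2 ratio of their normalized counts was taken in each library and compared between the groups. BOP1 over PES1 was at 0.036, 0.19 and 0.092 in DMSO and at −0.26, −0.25 and −0.31 in BRL-50481, a difference of −0.38, the largest of the 8. The other pairs that separated the groups were NOP10 over NHP2 (difference −0.32), IMP4 over IMP3 (−0.29), GAR1 over DKC1 (0.16), NOP56 over NOP58 (−0.15) and GNL3 over GNL2 (−0.11). Each of these 6 pairs gave p = 0.1 in the two-sided exact permutation test, the smallest that 3 against 3 libraries allow. The adjusted p of this exact test was 0.133 over the 8 pairs, so none could pass 0.05. Of single genes tested, 32.3% had every BRL-50481 library below every DMSO library, and 31.9% had every one above. A share for pairs of other genes is not given here, so such separation is not shown to be particular to partners. WDR12 over PES1 differed by −0.0089 (exact p = 0.5), with DMSO values of −0.68, −0.76 and −0.75 beside BRL-50481 values of −0.68, −0.77 and −0.77. NPM1 over NCL differed by 0.054 (exact p = 0.3, adjusted 0.343), where the DMSO values ran from 0.12 to 0.27 and the BRL-50481 values from 0.25 to 0.28. These 2 pairs overlapped between the groups. With the length and GC correction described below, the partners of both stood further apart. WDR12 was then at a log2 fold change of −0.79 and PES1 at −0.56, and NPM1 at −0.34 and NCL at −0.52.

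The scatter between libraries was small beside these changes for most genes. The coefficient of variation of a gene within DMSO had a median of 4.21% and a highest value of 14.7% (UTP20), and within BRL-50481 a median of 2.66%. DMSO replicate 1 held the lowest DMSO value in 27 of the 51 genes and the highest in 14. BRL-50481 replicate 3 held the lowest value of its group in 6 genes and the highest in 24. The median over the 51 genes of the log2 difference from the DMSO mean was −0.031, 0.022 and −0.011 in the DMSO libraries and −0.63, −0.62 and −0.61 in the BRL-50481 libraries. Count-based tests on the recovered reads gave 48 lower genes with edgeR (30.0% of all genes tested) and 47 with DESeq2 (28.6%), the difference being GRWD1.

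The members with an E-box had a median log2 fold change of −0.67 (20 of 21 lower), and the 22 matched genes without one −0.42 (20 of 22 lower). UTP20, whose E-box begins 10 bases before its start, was the exception among the first. HEATR1 and DDX10 were the exceptions among the second. The 8 members without a matched promoter are in neither group, and their log2 fold changes ran from −1.06 (RRS1) to −0.23 (DDX52). Over the other genes tested, the median was −0.041 for the 1378 with an E-box and 0.017 for the 10079 without one, and 36.3% and 30.5% were lower. With the members counted in, an E-box stood in 14.4% of all genes called lower and in 11.2% of those called higher. The cAMP response element (TGACGTCA, the same on both strands), to which the cAMP-regulated factor CREB binds, was also searched, a motif added after the values had been seen. It was found in 1 of the 43 genes (2.33%), against 3.67% of the other genes tested. That gene was DDX10, with copies at −239 and −72 from the start.

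MYC itself was lower. MYC had 26024, 28761 and 28138 normalized counts in DMSO replicates 1 to 3 and 12098, 12446 and 12330.2 in BRL-50481 replicates 1 to 3. The means of 27641 ± 1435 and 12291 ± 177 (SD, n = 3 each) gave a log2 fold change of −1.17 (SE 0.0477, adjusted p = 1.63e-09 in limma). The MYC groups were far apart, and 55.5% of its mean count was lost. Its part in the change of the 51 genes was not tested.

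Many other genes of the pathway moved the same way, by smaller amounts at the median. Of 121 further genes in 5 lists, 89 fell (73.6%), 5 rose (4.13%) and 27 were not called. Over all genes tested, 29.8% were lower and 28.9% higher. Among other small subunit factors 27 of 35 fell and 2 rose (median −0.43), with the largest falls in ESF1 (−1.19), DCAF13 (−1.16) and DIMT1 (−0.97), the last a dimethylase of the small subunit RNA. Among other large subunit factors 36 of 45 fell and 2 rose (median −0.47), led by ZNF622 (−1.19), URB2 (−0.94) and EBNA1BP2 (−0.93). Other snoRNP assembly factors gave 7 of 11 lower (median −0.31), with NUFIP1 (−0.66), SNU13 (−0.64) and NAF1 (−0.54) in front, of which SNU13 is the protein that first binds box C/D RNA. For RNA polymerase I and its factors, 10 of 16 fell and 1 rose (median −0.42). The polymerase subunit gene POLR1G (listed in the table under its older symbol CD3EAP) had the largest fall of any gene on these lists (−1.65), from a mean normalized count of 2391 ± 124 to 763 ± 40.7 (SD, n = 3 each). TCOF1 (−0.78), the gene of the nucleolar protein treacle, and RRN3 (−0.68), an initiation factor of the polymerase, followed. The RNA exosome, which trims the precursor RNA, had 9 of 14 genes lower (median −0.40), with EXOSC5 (−0.99), EXOSC4 (−0.90) and the cofactor MPHOSPH6 (−0.61) changing most. The genes that rose were TSR2 (0.20), KRR1 (0.14), NVL (0.19), DDX54 (0.19) and TAF1D (0.15), of which KRR1 was at −0.030 with the length and GC correction described below. The number called higher was 5, but 13 with that correction and 2 without the mean-variance trend in limma. It was 3 without DMSO replicate 3, and 1, 2 and 0 without BRL-50481 replicates 1, 2 and 3.

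Several of the 51 genes are also hosts of small nucleolar RNAs, which are cut from their introns. By the GENCODE annotation, 9 of them carry snoRNA genes on their own span, with 6 in GNL3, 5 in NOP56, 4 in NOP58, 3 in WDR43, 3 in NCL, 2 each in DKC1, TSR1 and PPAN and 1 in NOL11, and none of these lies in an exon of its host. All 9 fell, with a median log2 fold change of −0.54. Of the 42 other genes 39 fell, with a median of −0.62 over the 42, beside 29.8% lower over all genes tested. Exons of 8 genes (NOP56, HEATR1, DDX47, LTV1, NOP2, RRS1, PPAN and GRWD1) overlap on the same strand with exons of another annotated gene or transcript, so that their counts are uncertain to the extent that reads there were lost or shared.

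The change was also read against transcript length. The 19 genes with a canonical transcript under 2000 bases all fell, and 29 of the 32 longer ones did. Over all genes tested, of any length, 29.8% were lower. Of the 3 genes that were not called, HEATR1 has 8459 bases, UTP20 9031 and DDX10 3217. Once the dependence of each library on transcript length and GC content had been removed, 49 of the 51 were lower (33.1% of all genes tested), with a median of −0.55. HEATR1 and UTP20 were then called lower, at the values given with the genes that were not called, while IMP3 lost its call (−0.15, adjusted p = 0.0567 in limma) and DDX10 was at −0.048. Short genes moved toward 0 by this correction, such as NOP10 (507 bases, from −0.68 to −0.49), and long ones away from it, such as WDR3 (from −0.96 to −1.16).

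**Figure D5:**
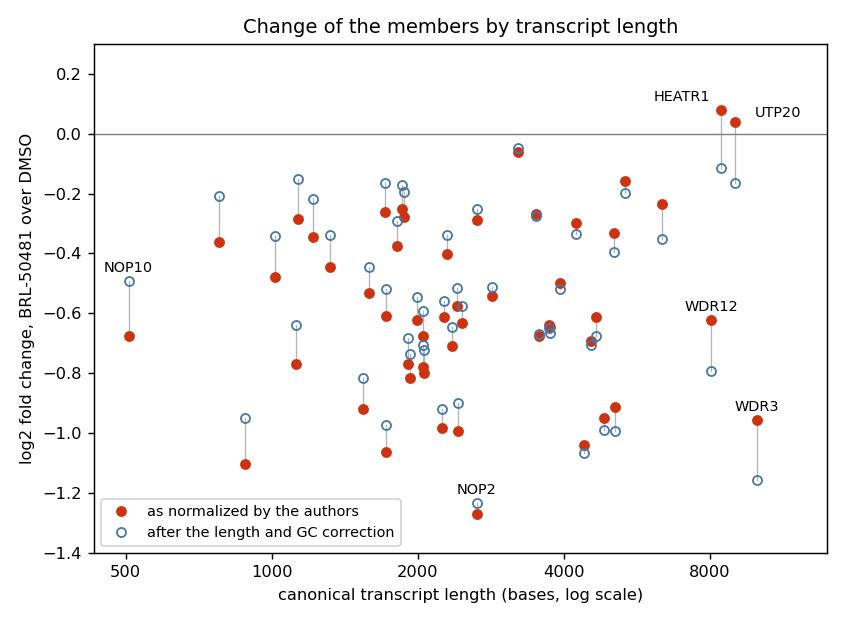
Log2 fold change (BRL-50481 over DMSO) of each of the 51 genes against the length of its canonical transcript (bases, log scale), as normalized by the authors (filled) and after the length and GC correction of each library (open), with a line joining the values of a gene. Open points lie above filled ones for short transcripts and below them for the longest, where HEATR1 and UTP20 cross 0.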

How the data were processed

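RNA sequencing was analysed for 6 libraries of MDA-MB-231 cells, grouped by their labels (3 DMSO, 3 BRL-50481), from a table that the authors deposited. The authors aligned single-end reads to hg38 with STAR (version 2.7.1a), counted them on UCSC genes with htseq-count set to the reverse strand, and ran DESeq2 (version 1.28). The labels describe oligo-dT selection, the series record depletion of ribosomal RNA. The deposited signal is each read count divided by the size factor of its library, called normalized count here. The deposited log2 fold changes, the deposited score (Wald statistic) and the deposited p-value columns are the authors' own results and were not used. Reads were recovered by dividing by the value of 1 read, and 100% of values came out whole within 1e-06.

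Genes with 4 or more normalized counts in 3 or more libraries were kept (15246, with 405 left out). Limma (version 3.58.1, R 4.3.3, trend) was run on log2(normalized count + 1), so fold changes of low genes are understated. P-values were adjusted by Benjamini-Hochberg over all genes tested, except where exact permutation tests of partner ratios were adjusted over 8 pairs. EdgeR (4.0.16, quasi-likelihood, 4574 genes lower and 4358 higher) and DESeq2 (1.42.0, 4356 and 4097) were run on the recovered reads. Lengths, GC content and positions came from canonical GENCODE release 44 transcripts on hg38, matched for 96.5% of genes, and promoters from RefSeq. Further alternatives were other pseudocounts, filters and scalings, no trend, a replicate block, leaving out each library, and a loess correction (span 0.5) for length and GC content. Procedures were tested on simulated counts with 200 changed genes, of which limma called 100% at a log2 fold change of 1 and 87.0% at 0.5. Far more genes were called in these data, so the simulation does not cover a change this broad.

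The 51 genes and the other lists were chosen with earlier results of these data known. By rule, all 51 could be named, with values per library for snoRNP core genes, the up to 3 largest called changes of each group, the partner pairs and the transcript most abundant per kilobase. Up to 3 genes per direction were named from other lists, in which EFL1 was not analysed here. Marker genes were VIM, CD44, EGFR, CDH1, PGR and ESR1, of which ESR1 was not analysed here.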

Additional observations from a re-analysis of the deposited data

How the results depend on the processing

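Between 46 and 49 of the 51 genes were called lower under every alternative. The counts of lower genes by step and on the other lists stayed within 1.5 times the reported ones. Of all genes tested, 29.8% were lower by the main rule, 30.0% with edgeR, 28.6% with DESeq2 and 33.1% with the length and GC correction. The median log2 fold change of the 51 genes, −0.61, was −0.56 with quantile normalization, −0.58 with median centring and −0.55 with the length and GC correction, and ran from −0.63 to −0.59 with 1 library left out. Genes of the 51 called higher numbered 0 to 2 with 1 library left out, the 2 being HEATR1 (0.17) and UTP20 (0.16) without DMSO replicate 1. The 5 genes called higher on the other lists became 2 without the trend, 13 with the length and GC correction and 0 to 6 with 1 library left out. Directions turned for UTP20 (−0.040 without DMSO replicate 2, where 1 library left out gave −0.040 to 0.16, −0.16 with the length and GC correction), for HEATR1 (−0.11 with that correction) and for the ratio of WDR12 over PES1 (−0.039 to 0.018 with 1 library left out, above 0 without DMSO replicate 1 at 0.018 and without BRL-50481 replicates 2 and 3 at 0.0053 and 0.0074). GRWD1 also lost its call with a pseudocount of 0.5, no filter, quantile normalization, median centring, no trend and DESeq2 (adjusted p of 0.0502, 0.0509, 0.15, 0.102, 0.0775 and 0.0698, all but the last in limma). The cause of these shifts was not tested.

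With the replicate number as a block, 48 of the 51 genes were lower and no call of a member changed. Over all 15246 genes tested, 4589 were then lower and 4440 higher. The labels do not say that a number marks a shared culture or day, and the deviations of same-numbered libraries correlated at 0.0514 to 0.1212, so the pairing was not used; 5 of 6 libraries correlated best with the library of their own number. The 3 libraries per group limit exact tests to p = 0.1, and p-values measure only the spread between these cultures. At a mean normalized count of 119, PPAN rests on the fewest reads of the 51 genes.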
